A study of Mus musculus with 40 samples.

Results

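The striatum of mice whose type 2 deiodinase carries alanine at residue 92 was compared with the striatum of mice whose enzyme carries threonine there. These were 8 of the 40 microarrays of a study that covered 5 brain regions, and they were chosen by the region and genotype in their labels. Arrays 33, 34, 35 and 36 held RNA of Ala-Dio2 mice (genotype Ala92D2HY), and arrays 37, 38, 39 and 40 held RNA of Thr-Dio2 mice (genotype Thr92D2HY). All mice were labelled with the background strain C56BL/6, so spelled, and were 8 to 10 weeks old. They were fed chow and kept on a light and dark cycle. The labels give neither the sex nor the animal behind an array, so a p-value reflects the spread between arrays, and that spread may be technical. In the same labels a second description line of each array names the striatum together with cortex. The title of the study concerns stress of the endoplasmic reticulum and hypothyroidism in the brain.

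The type 2 deiodinase, encoded by Dio2, removes an iodine from thyroxine to make T3, the form of thyroid hormone that binds the nuclear receptors encoded by Thra and Thrb. In the brain it acts mainly in astrocytes, and neurons take up the T3 that astrocytes release. The striatum is made up mostly of GABAergic projection neurons that respond to dopamine, in a direct pathway marked by the receptor Drd1 and an indirect pathway marked by Drd2. It lies beside the lateral ventricle, whose choroid plexus secretes cerebrospinal fluid and makes the thyroxine carrier transthyretin.

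The values are log2 signals normalized between arrays, and a difference is Ala minus Thr in log2 units with the standard error (SE) of a limma fit to the 8 arrays. Of 19505 annotated genes, 13560 were bright enough to be tested, and genes with a Benjamini-Hochberg adjusted p under 0.05 were called. The number of arrays limits the precision. Negative control rows had array medians of 5.85 to 6.02, and 3160 of the tested genes (23.3%) had a mean below the median of those rows. Over all tested genes the median difference was 0.02.

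The striatal label was checked against defining markers. Drd1 lay between 12.3 and 14.5 on the striatum arrays and between 3.51 and 9.80 on the arrays of the other regions, and Drd2 between 13.7 and 14.9 against 3.37 to 9.97. Rgs9, a regulator of G protein signalling in projection neurons, lay between 16.9 and 18.0 against 5.44 to 12.9. All 8 striatum arrays thus had these markers at levels that no array of another region reached. The glutamate transporter gene Slc17a7, a member of the neocortex list below, in contrast had 15.01, 8.96, 13.24 and 9.13 in Ala striatum, and 7.20, 12.73, 15.28 and 13.32 in Thr striatum. Its level on Ala array 33 and on Thr array 39 reached the range of the other regions, 14.8 to 17.6. All arrays of the other regions lay in that range, so it is not particular to cortex.

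Several arrays stood apart in lists of genes from other tissues. The score of a list is the mean log2 signal of its genes on an array. The neocortex score was highest on Ala array 33 (9.55) and Thr array 39 (9.60), 1 of each genotype, and lowest on Thr array 37 (7.28). The choroid plexus score was 7.96, 6.62, 6.74 and 9.14 on the Ala arrays, and 6.02, 6.19, 5.95 and 5.49 on the Thr arrays. Every Ala array was thus above every Thr array, and arrays 33 and 36 were farthest above. The liver score was 4.08, 4.12, 4.18 and 4.43 in Ala and 4.89, 4.65, 4.85 and 5.99 in Thr, with array 40 the highest. The choroid plexus and liver scores each separated the genotypes, so with either as a covariate a change cannot be assigned to score or genotype. In bulk tissue, fewer cells of a type and less RNA per cell cannot be told apart. The Y-linked Eif2s3y lay between 9.94 and 11.23 in Ala and between 9.45 and 11.31 in Thr, above the negative control medians on all 8 arrays.

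**Figure D1:**
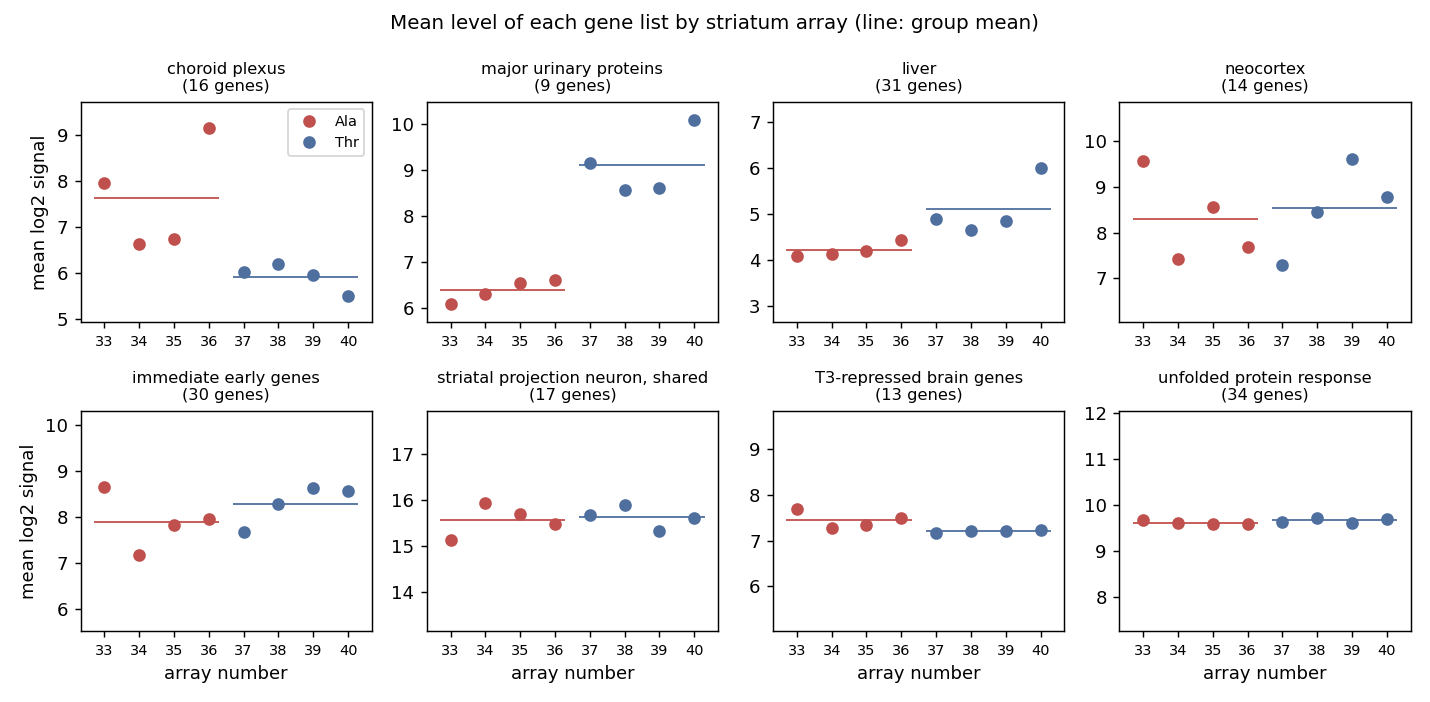
Mean log2 signal of the genes of 8 lists (vertical axis) on each striatum array (horizontal axis, array number), with the 4 Ala arrays left of the 4 Thr arrays and a line at each group mean. The choroid plexus score peaks at 9.14 on Ala array 36, the score of the major urinary proteins peaks at 10.10 on Thr array 40, and the neocortex score is high on 1 array of each genotype.

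Of the 13560 genes tested, 7 were called (0.0516%). Mup2, Mup9, Mup19, Mup22 and Alb were lower in Ala striatum (5 genes, 0.0369%), and Cd59a and Lbp were higher (2 genes, 0.0147%). The 4 Mup genes encode major urinary proteins, small lipid-carrying proteins that the mouse liver makes in large amounts and that pass into the urine, where they bind pheromones. Alb encodes serum albumin, also a liver product. At an unadjusted p under 0.05, 232 genes were higher in Ala (1.71%) and 103 were lower (0.76%), 335 in all (2.47%).

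Of the 7 called genes, Mup22 had the largest difference between genotypes. Its log2 signals were 8.84, 8.63, 9.28 and 9.24 in Ala striatum, and 14.68, 13.18, 12.94 and 15.76 in Thr striatum. The groups lay far apart, and the Thr arrays differed more among themselves than the Ala arrays did, with array 40 the highest. The means were 9.00 ± 0.31 in Ala and 14.14 ± 1.32 in Thr (SD, n = 4 each), a difference of -5.15 ± 0.47 (limma adjusted p = 0.000184), which is 35.4-fold lower in Ala.

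Mup2 had 7.75, 7.68, 8.39 and 9.06 in Ala and 13.82, 12.31, 12.28 and 14.84 in Thr, a difference of -5.09 ± 0.49 (limma adjusted p = 0.000184). Mup19 had 9.56, 8.62, 9.38 and 8.71 in Ala and 14.67, 13.15, 12.95 and 15.81 in Thr, a difference of -5.08 ± 0.49 (limma adjusted p = 0.000184). Mup9 had 8.69, 7.77, 8.78 and 7.93 in Ala and 13.32, 12.28, 11.41 and 14.22 in Thr, a difference of -4.52 ± 0.47 (limma adjusted p = 0.000298). Among the Thr arrays all 4 genes had the order 40, 37, then 38 and 39, so they moved together from array to array. The Ala values also lay above the array medians of the negative control rows, 5.85 to 6.02. The upper range of those rows was not examined, so whether the Ala signal exceeded background was not tested. With the liver score of each array as a covariate, a score that itself separates the genotypes, the 4 genes differed by -3.27 to -3.55 and none passed. With the choroid plexus score instead, which separates the genotypes as well, Mup9 (-4.11) and Mup19 (-4.63) lost their call.

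Of the 22 major urinary protein genes in the list, 9 had an annotated row and 8 were tested. All 8 differences were negative, with a median of -3.29, and 4 were called lower. In 6 of the 8 every Ala array was below every Thr array, against 0.678% of all genes tested. The 6 include the 4 called genes, and the list was chosen with earlier results of these data known, so this share is not a test. Mup3 and Mup20 passed the filter on dim genes only through their Thr means, so the counts over tested members lean towards genes that are high in Thr. Mup3 had 3.73, 4.91, 4.64 and 4.60 in Ala and 6.72, 5.56, 5.99 and 7.86 in Thr, a difference of -2.06 ± 0.41 that did not pass (limma adjusted p = 0.237). Mup21 differed by -1.63 ± 0.34 (limma adjusted p = 0.294). Mup5 and Mup20 had overlapping groups and differences of -0.39 and -0.29, and Mup6 was too dim to be tested.

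Members of this family are close copies, and a probe for one can take up RNA of another, so the Mup values are uncertain as measurements of single genes. The start regions of 3 of the called genes and of Mup3 are given as an example of likeness, though most of each lies before the gene's start. Transcript and probe sequences were not compared. Each sequence below runs from 250 bases before to 50 bases after the gene's start (RefSeq, build GRCm38.p6, all on the minus strand of chromosome 4), with the motif TATATAA in capitals. The positions are chr4:60139807-60140106 for Mup2, chr4:60421903-60422202 for Mup9, chr4:61782175-61782474 for Mup19 and chr4:62087268-62087567 for Mup3.
Mup2: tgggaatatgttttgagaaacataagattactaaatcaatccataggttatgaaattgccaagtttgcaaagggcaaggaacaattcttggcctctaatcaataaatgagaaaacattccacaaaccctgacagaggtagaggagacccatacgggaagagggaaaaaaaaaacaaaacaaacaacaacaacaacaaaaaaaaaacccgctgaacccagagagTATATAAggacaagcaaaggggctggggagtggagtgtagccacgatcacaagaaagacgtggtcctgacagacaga
Mup9: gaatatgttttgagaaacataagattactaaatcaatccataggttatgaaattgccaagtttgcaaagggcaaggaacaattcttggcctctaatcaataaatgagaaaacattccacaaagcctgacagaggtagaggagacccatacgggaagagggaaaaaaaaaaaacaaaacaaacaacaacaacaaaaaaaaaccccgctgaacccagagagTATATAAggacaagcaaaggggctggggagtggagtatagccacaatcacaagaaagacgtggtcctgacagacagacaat
Mup19: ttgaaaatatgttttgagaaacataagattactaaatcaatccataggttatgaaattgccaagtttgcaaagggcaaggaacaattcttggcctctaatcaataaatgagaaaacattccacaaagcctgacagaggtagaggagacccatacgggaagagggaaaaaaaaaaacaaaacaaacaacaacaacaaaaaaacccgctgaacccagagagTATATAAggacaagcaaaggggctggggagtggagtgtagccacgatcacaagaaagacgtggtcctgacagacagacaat
Mup3: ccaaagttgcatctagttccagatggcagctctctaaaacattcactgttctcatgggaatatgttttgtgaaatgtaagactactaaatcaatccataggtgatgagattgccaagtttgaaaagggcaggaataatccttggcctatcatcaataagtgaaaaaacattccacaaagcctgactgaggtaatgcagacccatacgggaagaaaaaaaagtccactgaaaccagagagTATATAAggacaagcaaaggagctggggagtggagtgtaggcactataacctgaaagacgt
Mup2, Mup9 and Mup19 were 96.7% to 97.7% identical over the aligned stretch, gaps included, and Mup3 was 76.8% to 77.9% identical to them. The motif, searched on the strand as written, began 27 bases before the start of Mup2, 31 before those of Mup9 and Mup19, and 11 before that of Mup3. It occurs in 722 of 32851 promoters of that table (2.2%).

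Albumin had 7.21, 7.03, 8.03 and 7.91 in Ala and 11.72, 10.89, 10.84 and 14.58 in Thr. All 4 Thr arrays were higher than all 4 Ala arrays, and array 40 was again the highest. The means were 7.54 ± 0.50 in Ala and 12.01 ± 1.76 in Thr (SD, n = 4 each), a difference of -4.47 ± 0.62 (limma adjusted p = 0.00869). The call of Alb was lost when the variance was estimated robustly (adjusted p = 0.572) or when arrays 33 and 36 were both left out (adjusted p = 0.201), with the difference then at -4.48. It was also lost with the choroid plexus score in the fit (-4.12) and with the liver score in the fit (-1.95), a score of which Alb is itself a member.

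Of the 35 liver genes listed, 31 were on the array and 14 were tested. All 14 had negative differences, with a median of -0.85, and 1, Alb, was called. Of the 14, 6 passed the filter on dim genes only through their Thr means. Over all 31 genes, 25 had their highest value on Thr array 40, and 18 were below the lowest negative control median on all 8 arrays. Fgg, a fibrinogen chain, had 4.01, 3.81, 3.82 and 4.02 in Ala and 5.36, 4.95, 4.81 and 8.13 in Thr. Serpina1a, a plasma protease inhibitor, had 5.38, 5.06, 4.84 and 5.98 in Ala and 6.32, 6.19, 6.46 and 9.29 in Thr. In both genes the groups did not overlap and array 40 lay far above the other Thr arrays, and neither passed (limma adjusted p = 1.00 each). In the fit to all 40 arrays, which estimates the spread of a gene from all regions together, Fgg passed (limma adjusted p = 0.0129). Apoa1, the main protein of high-density lipoprotein, lay at 3.08 to 3.56 in Ala and at 3.90, 3.52 and 4.36 on Thr arrays 37, 38 and 39, but at 6.20 on array 40. Whether RNA from another tissue contributed to the Thr arrays was not tested.

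**Figure D2:**
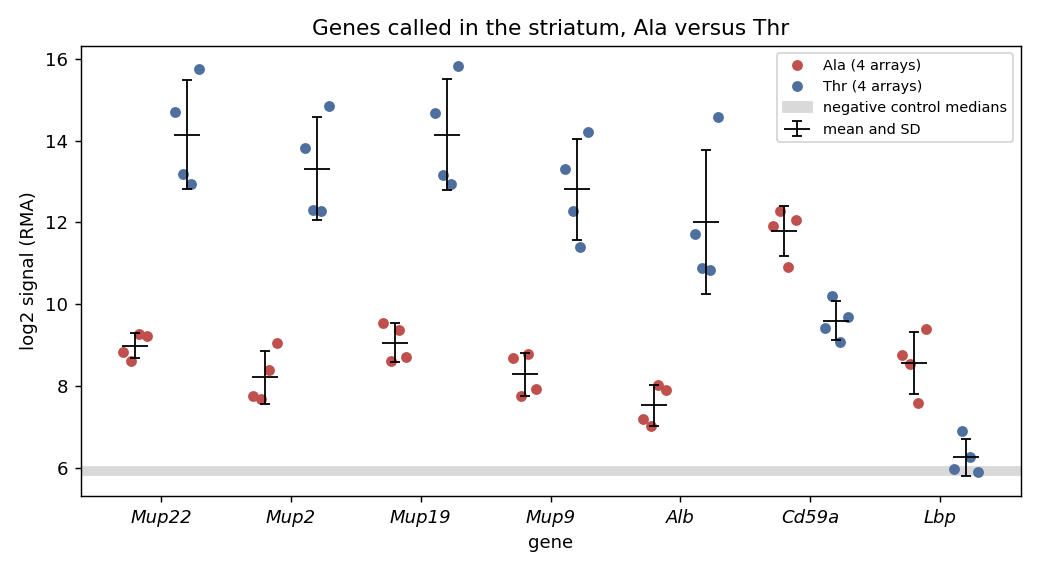
Log2 signal (vertical axis) of the 7 called genes (horizontal axis), with the 4 Ala arrays left of the 4 Thr arrays for each gene, the mean and SD beside them, and the range of negative control medians as a grey band. The 4 Mup genes and Alb lie lower in Ala striatum, Cd59a and Lbp lie higher, and for each gene the groups do not overlap.

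Cd59a encodes a membrane-anchored protein that stops complement from forming its pore in the cell's own membrane. It had 11.92, 12.27, 10.92 and 12.05 in Ala striatum and 9.43, 10.21, 9.08 and 9.70 in Thr striatum. The groups did not overlap, and the lowest Ala array was 35. The means were 11.79 ± 0.60 in Ala and 9.61 ± 0.48 in Thr (SD, n = 4 each), a difference of 2.19 ± 0.31 (limma adjusted p = 0.0103) or 4.55-fold higher in Ala. The call was lost without array 34, 36 or 39, while the difference stayed between 2.01 and 2.48 whichever array was left out. With the liver score as a covariate the difference was 2.19 ± 0.50 and did not pass. With the choroid plexus score of each array as a covariate in the fit, the difference was 1.87 ± 0.47 and did not pass. Both scores separate the genotypes and the SE was wider with either, so these lost calls do not show what the scores account for.

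The neighbouring copy of this gene, Cd59b, is known in mice for expression mainly in the testis. It had 8.48, 9.13, 8.14 and 8.45 in Ala and 8.16, 7.74, 6.86 and 8.03 in Thr, with 1 overlapping array, and a difference of 0.85 ± 0.31 that did not pass (limma adjusted p = 1.00). Since both genes are similar in sequence, their probes may share signal. Of 14 tested genes of complement and its inhibitors, Cd59a alone was called. The other 13 included C1qa, part of the first complement component (0.01 ± 0.26), the inhibitor gene Cd55 (0.37 ± 0.31) and Clu (0.11 ± 0.18), and the median of the list was 0.08.

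Lbp encodes the lipopolysaccharide-binding protein, which hands bacterial lipopolysaccharide to receptors of innate immunity. It had 8.78, 8.55, 7.59 and 9.41 in Ala and 6.00, 6.90, 6.27 and 5.91 in Thr. Arrays 36 and 33, with the highest choroid plexus scores, also had the highest Lbp. The difference was 2.31 ± 0.35 (limma adjusted p = 0.0171), or 4.96-fold higher in Ala. The call was lost when any of arrays 33, 34, 36, 37, 39 or 40 was left out, and in a fit to all 40 arrays (limma adjusted p = 0.134). Without arrays 33 and 36 together the difference was 1.80, and with the choroid plexus score in the fit it was 1.34, and neither passed.

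Among the other 8 of the 10 smallest p-values in the Ala direction, 5 belonged to genes of the choroid plexus list and none passed over all genes. Kcnj13, a potassium channel of the choroid plexus epithelium, had 11.21, 8.91, 9.36 and 12.30 in Ala and 7.11, 8.01, 6.80 and 6.04 in Thr. Its difference was 3.46 ± 0.60 (limma adjusted p = 0.0727). Ttr, which encodes transthyretin, had 18.72, 16.31, 16.33 and 19.11 in Ala and 15.18, 16.01, 13.51 and 13.07 in Thr. Its difference was 3.18 ± 0.67 (limma adjusted p = 0.331). Ttr was the brightest gene of array 36, whose highest value was 19.1, while the other arrays reached 19.88 to 19.93. Of the 8 arrays, array 36 also had the lowest correlation with the other arrays of its genotype (0.975). Its genes deviated most widely from the means of their group (SD 0.474).

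Folr1, a folate receptor, had 10.04, 7.02, 7.86 and 10.93 in Ala and 6.29, 6.36, 5.97 and 5.58 in Thr, a difference of 2.91 ± 0.63 (limma adjusted p = 0.361). Kl, the gene of klotho, a co-receptor for a fibroblast growth factor, had 9.18, 7.49, 7.80 and 11.52 in Ala and 5.66, 7.10, 5.49 and 5.80 in Thr, a difference of 2.98 ± 0.66 (limma adjusted p = 0.404). Sostdc1, a secreted inhibitor of BMP and Wnt signals, had 8.49, 6.24, 6.42 and 8.77 in Ala and 5.54, 5.28, 5.67 and 5.07 in Thr (2.09 ± 0.48, limma adjusted p = 0.449). In all 5 genes arrays 33 and 36 were the highest, and arrays 34 and 35 also lay above every Thr array.

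The choroid plexus list had 18 genes, of which 16 were on the array and 13 were tested. All 13 differences were positive, from 0.72 to 3.46 with a median of 1.96, and 0 were called by limma over all genes. All 13 had an unadjusted p under 0.05, against 1.71% of genes in that direction, and in 9 every Ala array was above every Thr array, against 1.25% of all genes tested. The list was chosen with earlier results of these data known, so these shares are not a test. Of the 13, Kcne2 passed the filter through its Ala mean alone. Of the 16 genes, 15 had their highest value on Ala array 36 and 11 had their lowest on Thr array 40. Without arrays 33 and 36, Kcnj13 differed by 2.15 and Ttr by 1.88, and without arrays 37 and 40 by 3.04 and 2.86. How far the amount of choroid plexus in each dissection contributed was not tested.

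The remaining 3 genes with the smallest p in this direction were in no list. Slc13a4, a sulfate transporter, had 6.64, 5.31, 5.02 and 6.67 in Ala and 4.13, 3.88, 3.71 and 4.21 in Thr (1.93 ± 0.35, limma adjusted p = 0.103), again highest on arrays 33 and 36. Slc14a2, a urea transporter, had 5.48, 5.85, 5.80 and 5.64 in Ala and 4.58, 5.03, 4.68 and 4.52 in Thr (0.99 ± 0.22, limma adjusted p = 0.426). Its mean in both genotypes was below the range of the array medians of the negative control rows. H2-DMb1, which helps load peptides onto class II molecules, had 6.14, 6.37, 6.60 and 6.44 in Ala and 5.51, 5.18, 5.62 and 5.29 in Thr (0.98 ± 0.22, limma adjusted p = 0.440). Unlike Slc13a4, the last 2 genes were not highest on arrays 33 and 36.

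In the Thr direction, Mid1, Zfp976 and Serpina1c completed the 10 smallest p-values, and none of the 3 passed. Mid1, an E3 ubiquitin ligase bound to microtubules, had 9.40, 10.52, 9.93 and 10.59 in Ala and 11.14, 12.17, 11.57 and 11.15 in Thr (-1.39 ± 0.30, limma adjusted p = 0.361). Zfp976, a zinc finger gene, had 6.61, 5.80, 7.02 and 6.14 in Ala and 8.28, 8.36, 7.40 and 6.85 in Thr (-1.33 ± 0.35, limma adjusted p = 1.00). The groups did not overlap for Mid1, and for Zfp976 they did, by 1 array. Serpina1c is a liver gene of the list above (-1.90 ± 0.51, limma adjusted p = 1.00).

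**Figure D3:**
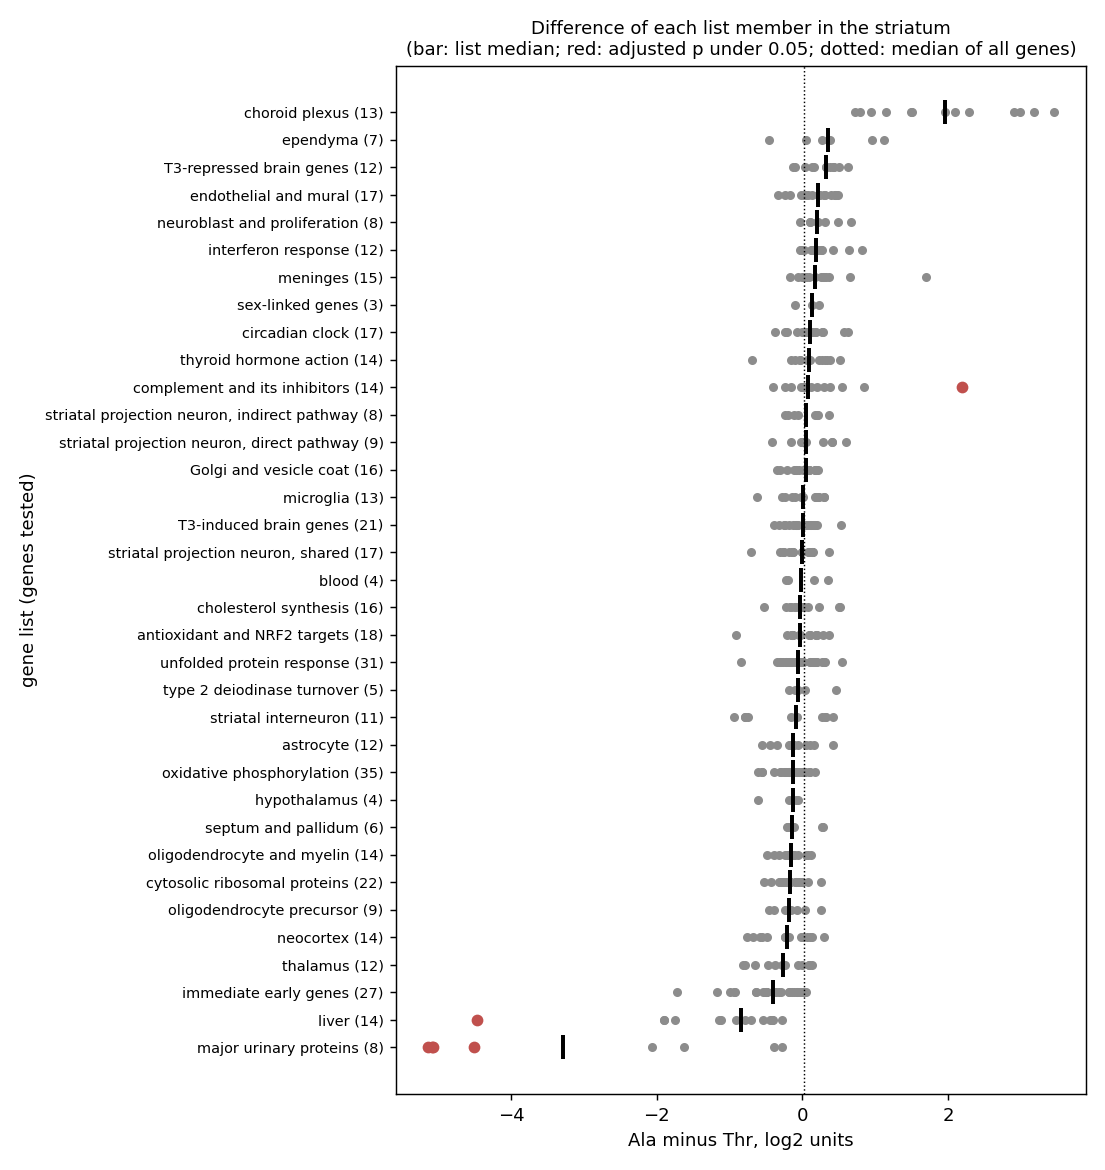
Ala minus Thr difference (horizontal axis, log2 units) of each tested member of the gene lists (vertical axis, genes tested in brackets), with a bar at the list median, called genes in red and the median of all genes dotted. The choroid plexus list lies to the right with a median of 1.96, the liver and major urinary protein lists lie to the left, and the medians of the other lists lie between -0.41 and 0.35.

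Genes of thyroid hormone action were measured next. Dio2 had 9.17, 9.42, 9.20 and 9.29 in Ala and 8.42, 9.50, 9.13 and 9.13 in Thr, and its difference was 0.22 ± 0.25 (limma adjusted p = 1.00). The groups overlapped, and the lowest value was that of Thr array 37. The array reports the amount of Dio2 RNA and not the residue it encodes, so it does not check the genotype label. Thra had 14.34, 14.64, 13.77 and 14.33 in Ala and 14.14, 14.95, 14.15 and 13.99 in Thr (-0.04 ± 0.25). Thrb differed by 0.07 ± 0.29. Slco1c1, which carries thyroxine across the blood-brain barrier, had 13.07, 12.31, 12.84 and 13.93 in Ala and 12.39, 12.58, 12.47 and 12.64 in Thr (0.51 ± 0.28), and with the choroid plexus score in the fit the difference was -0.33. Of the 14 tested genes of this list, 9 had positive and 5 negative differences, the median was 0.09 and 0 were called by limma, with 0 at an unadjusted p under 0.05. Dio3, whose enzyme inactivates T3, was too dim to be tested, at 3.00 to 3.43 in Ala and 2.94 to 3.50 in Thr.

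The genes that T3 is known to induce in brain did not move together. Klf9, a transcription factor gene, had 13.56, 13.84, 13.81 and 14.16 in Ala and 12.96, 14.17, 14.11 and 13.90 in Thr (0.06 ± 0.26). Hr, a corepressor gene, differed by 0.17 ± 0.24. Rasd2, which encodes the striatal GTPase Rhes, had 14.40, 15.69, 15.02 and 15.30 in Ala and 14.77, 15.60, 14.66 and 14.79 in Thr (0.15 ± 0.28). Of the 21 tested members, 11 differences were positive and 10 negative, the median was 0.00, and 0 were called by limma, with 0 at an unadjusted p under 0.05. Mbp, a myelin protein gene of that list, had a difference of -0.39 ± 0.18 with overlapping groups.

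Of 12 tested genes that T3 is known to repress in brain, 10 had positive differences and 2 negative, with a median of 0.33, and 0 were called by limma. At an unadjusted p under 0.05, 1 was higher in Ala, against 1.71% of all genes tested. Over all genes, 53.7% of differences were positive. Col6a1, a collagen chain, had 7.80, 6.99, 7.05 and 7.80 in Ala and 7.04, 6.64, 6.69 and 6.75 in Thr (0.63 ± 0.26, limma adjusted p = 1.00). Cxadr, a cell adhesion receptor, had 5.59, 4.90, 5.10 and 5.62 in Ala and 4.91, 4.81, 4.77 and 4.70 in Thr (0.50 ± 0.24). In both genes arrays 33 and 36 were the highest. With the choroid plexus score in the fit Col6a1 differed by 0.07, and without arrays 33 and 36 by 0.24.

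The unfolded protein response answers misfolded protein in the endoplasmic reticulum through the sensors Ern1, Eif2ak3 and Atf6. Of its 31 tested genes, 13 differences were positive and 18 negative, the median was -0.06, and 0 were called by limma. Over all genes, 53.7% of differences were positive. At an unadjusted p under 0.05, 1 gene of the list was higher in Ala and 1 lower, against 1.71% and 0.76% of all genes tested. The chaperone gene Hspa5 had 15.93, 15.20, 15.68 and 15.15 in Ala and 15.40, 15.26, 15.48 and 15.81 in Thr, a difference of 0.00 ± 0.22. Atf4 differed by 0.01 ± 0.28 and Xbp1 by -0.35 ± 0.22. Ddit3, which encodes the factor CHOP of the Eif2ak3 branch, had 9.22, 8.58, 8.66 and 8.96 in Ala and 10.64, 9.47, 9.48 and 9.20 in Thr. All Ala values but that of array 33 lay below the Thr range, and the difference of -0.84 ± 0.30 did not pass (limma adjusted p = 1.00). Trib3, a target of that branch, had 5.61, 5.78, 6.34 and 6.28 in Ala and 5.67, 5.31, 5.22 and 5.62 in Thr, a difference of 0.55 ± 0.25 that did not pass.

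The genes of striatal neurons were close to even between genotypes. The shared markers of projection neurons had 7 positive and 10 negative differences with a median of -0.01, those of the direct pathway 5 and 4 with a median of 0.05, and those of the indirect pathway 4 and 4 with a median of 0.05. None was called by limma, and 0 had an unadjusted p under 0.05. Drd1 had 13.99, 14.14, 13.98 and 12.31 in Ala and 14.46, 14.08, 13.54 and 13.99 in Thr, so that Ala array 36 was low. Ppp1r1b, the gene of DARPP-32, had 15.08, 16.28, 16.12 and 16.13 in Ala and 16.23, 16.57, 15.58 and 16.22 in Thr, so that Ala array 33 was low. Penk, the enkephalin precursor of the indirect pathway, lay between 18.86 and 19.28 in Ala and between 19.07 and 19.22 in Thr, near the upper end of the scale.

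Interneuron markers had 4 positive and 7 negative differences in 11 tested genes, with a median of -0.09, and 0 were called by limma. At an unadjusted p under 0.05, 3 were lower in Ala, against 0.76% of all genes tested. Pvalb, a calcium-binding protein gene of fast-spiking interneurons, had 7.42, 8.37, 7.38 and 8.24 in Ala and 9.57, 9.36, 7.50 and 8.77 in Thr (-0.95 ± 0.40). Calb2 had 6.77, 5.81, 5.68 and 5.73 in Ala and 6.01, 7.01, 6.80 and 7.34 in Thr (-0.79 ± 0.32), and Npy had 11.53, 10.55, 10.65 and 9.33 in Ala and 11.29, 11.45, 11.23 and 11.10 in Thr (-0.75 ± 0.35). In these genes the groups overlapped and none passed (limma adjusted p = 1.00 each). With the choroid plexus score in the fit Npy differed by -0.18, Calb2 by -0.82 and Pvalb by -1.15. Sst, the somatostatin gene, differed by -0.08 ± 0.23.

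Immediate early genes, which neurons switch on within minutes of activity, had 25 negative and 2 positive differences in 27 tested members, with a median of -0.41. Over all genes, 46.3% of differences were negative. None was called, and 2 were lower at an unadjusted p under 0.05, Egr1 and Egr4, against 0.76% of all genes tested. Egr1 had 14.67, 13.72, 14.02 and 12.80 in Ala and 13.95, 14.64, 15.02 and 15.37 in Thr (-0.94 ± 0.36, limma adjusted p = 1.00). Egr4 had 7.71, 6.22, 6.51 and 6.12 in Ala and 6.78, 8.06, 7.33 and 8.37 in Thr (-0.99 ± 0.39, limma adjusted p = 1.00). Ala array 33 lay within the Thr range in both genes.

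The list varied more widely between arrays of a genotype than the genotype means differed. Its score was 8.64, 7.17, 7.82 and 7.94 in Ala and 7.66, 8.27, 8.62 and 8.57 in Thr, and Ala array 33 was the highest of all. Nr4a2 had 11.88, 5.74, 9.33 and 6.16 in Ala and 6.62, 9.28, 12.16 and 11.96 in Thr (-1.73 ± 1.26), and Fos had 7.14, 5.45, 5.82 and 6.99 in Ala and 6.54, 6.70, 7.71 and 7.01 in Thr (-0.64 ± 0.38). The neocortex score beside it was 9.55, 7.42, 8.56 and 7.69 in Ala and 7.28, 8.44, 9.60 and 8.78 in Thr, so arrays 33 and 39 were high in both lists. With the neocortex score as a covariate Egr1 differed by -0.81 and Egr4 by -0.88, with the choroid plexus score in the fit by -0.29 and -0.92, and with the liver score in the fit by -0.66 and -0.62. Leaving out 1 array at a time moved the list median between -0.74 and -0.14.

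The 35 oxidative phosphorylation genes had 8 positive and 27 negative differences with a median of -0.12, and the 22 cytosolic ribosomal protein genes had 2 and 20 with a median of -0.16. In either list 0 were called by limma, with 0 at an unadjusted p under 0.05. Thr array 37 held the highest value of 21 of the 35 oxidative phosphorylation genes and of 19 of the 22 ribosomal protein genes. The ribosomal score was 13.89, 13.25, 12.98 and 13.10 in Ala and 14.16, 13.39, 13.07 and 13.24 in Thr, so the arrays of each genotype spread more widely than the genotypes did, and leaving out 1 array moved the ribosomal median between -0.38 and 0.10. The 14 myelin genes had 3 positive and 11 negative differences (median -0.16), the 12 astrocyte genes 4 and 8 (median -0.12) and the 13 microglia genes 7 and 6 (median 0.01), with 0 called in each and 0 at an unadjusted p under 0.05. The 7 genes of ependyma, the ciliated lining of the ventricles, had 6 positive differences and 1 negative (median 0.35), among them Ak7 at 0.95 ± 0.30 and Cfap126 at 1.12 ± 0.39, and the 15 meninges genes had 12 and 3 (median 0.17), among them Igfbp2 at 1.69 ± 0.42 (limma adjusted p = 0.776). With the choroid plexus score in the fit Ak7 differed by 0.23, Cfap126 by 0.44 and Igfbp2 by 0.20, with the liver score in the fit Cfap126 differed by 0.38, and without arrays 33 and 36 Ak7 differed by 0.61 and Igfbp2 by 0.80.

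The striatal differences were set against the mean difference of the amygdala, cerebellum, hippocampus and prefrontal cortex in a fit to all 40 arrays. Of the 13560 genes, 8 passed this test (0.059%). The labels do not say whether regions came from the same mice, and the fit treated the arrays as independent. The regions may therefore not be separate observations. Mup2 differed by -5.09 in the striatum and by 0.01 on average elsewhere, so the striatum stood -5.10 ± 0.76 from the other regions (limma adjusted p = 0.000480). Mup22 stood -5.17 ± 0.78 from them (limma adjusted p = 0.000480), Mup9 -4.58 ± 0.76 (0.00148), Mup19 -4.98 ± 0.86 (0.00295) and Alb -4.29 ± 0.68 (0.000759). Mup3 passed in this fit as well (-1.96 ± 0.38, limma adjusted p = 0.0189).

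In the Ala striatum, too, the mean levels of Mup2 and Alb were above those of the other regions, though single arrays overlapped. Mup2 averaged 8.22 ± 0.65 in Ala and 13.32 ± 1.25 in Thr striatum. It averaged 6.90 ± 1.47 in Ala and 6.13 ± 1.00 in Thr prefrontal cortex, and 5.46 ± 1.91 and 5.16 ± 0.86 in Ala and Thr amygdala (SD, n = 4 each). The highest array outside the striatum was at 8.94, within the range of the Ala striatum arrays. Alb averaged 7.54 ± 0.50 in Ala and 12.01 ± 1.76 in Thr striatum. Its highest array in another region was at 8.43, above all Ala striatum arrays (7.03 to 8.03).

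Slc14a2 and Phactr2 passed the same test in the other direction. Slc14a2 differed by 0.99 in the striatum and by -0.07 on average elsewhere, 1.06 ± 0.21 apart (limma adjusted p = 0.0189). Phactr2, a regulator of protein phosphatase 1 and actin, had 7.41, 6.75, 7.27 and 7.61 in Ala and 6.51, 6.35, 5.76 and 6.35 in Thr striatum. Its difference was 1.02 in the striatum and -0.33 on average elsewhere, 1.34 ± 0.28 apart (limma adjusted p = 0.0336). Neither gene passed in the fit to the 8 striatum arrays. In the fit to all 40 arrays the striatal difference of Slc14a2 passed (limma adjusted p = 0.00977) and that of Phactr2 did not (0.132). Mup2, Mup9, Mup19, Mup22 and Alb passed this test whichever striatum array was left out. The call of Mup3 was lost without array 33, 37 or 40, that of Slc14a2 without array 34, 35, 37, 39 or 40, and that of Phactr2 without array 33, 35, 36, 38, 39 or 40.

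Cd59a and Lbp did not pass this test. Cd59a had a higher mean in Ala in every region, by 0.93 in amygdala, 1.21 in cerebellum, 0.86 in hippocampus and 1.51 in prefrontal cortex, and the striatum stood 1.06 ± 0.47 above their mean (limma adjusted p = 0.974). Mid1 had differences of -1.14 to -1.48 in the other regions and of -1.39 in the striatum. Lbp differed by -0.03 on average elsewhere, and its striatal difference stood 2.34 ± 0.63 above that (limma adjusted p = 0.450).

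Ttr had no constant direction across regions. It differed by 3.84 in prefrontal cortex and 1.43 in amygdala, but by -1.18 in hippocampus and -4.58 in cerebellum, against 3.18 in the striatum. Its SD within a group of 4 arrays was 1.51 and 1.38 in Ala and Thr striatum, and 6.21 and 1.52 in Ala and Thr cerebellum.

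**Figure D4:**
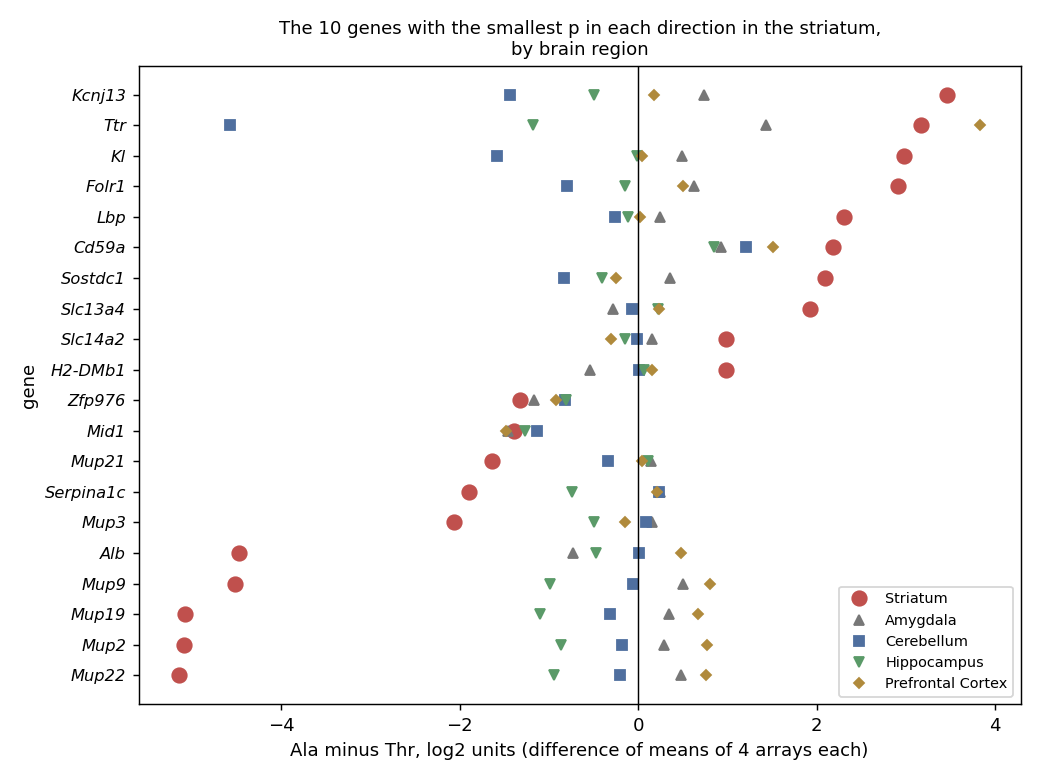
Ala minus Thr difference (horizontal axis, log2 units) in each of the 5 brain regions for the 10 genes with the smallest striatal p in each direction (vertical axis). The Mup genes and Alb lie far below 0 in the striatum alone, Cd59a lies above 0 and Mid1 below 0 in every region, and Ttr lies on both sides of 0.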

How the data were processed

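Total RNA was extracted with Trizol, labelled with biotin and hybridized to Affymetrix arrays, per the labels' protocols. The deposited values are log2 signals made by the authors with RMA, a method that removes background, equalizes the arrays and combines the probes of a gene, per the submitters' processing notes. Its version and the genome build are not given in the sources used here. Normalization ties all arrays to one distribution, so a difference is relative to the other genes. Of 28846 rows, 6640 were controls and 2634 transcript rows had no symbol. The 19572 named rows matched RefSeq (GRCm38.p6), and the brightest row was kept for 55 genes with several. Genes whose mean over the 8 striatum arrays was above log2 4.52, the 30th percentile, entered lmFit and trended eBayes of limma 3.58.1 under R 4.3.3, with 6 residual degrees of freedom and Benjamini-Hochberg adjustment over 13560 genes. The comparison with the other regions used all 40 arrays and 10 group means, with the spread of a gene estimated from all regions together.

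The 35 gene lists held 619 entries, of which 543 were on the array and 478 were tested. No set test was run. Named genes were the 10 smallest p of each direction, fixed genes of hormone action and protein folding, up to 4 members of each list, and the 10 smallest p against other regions. Further list members were named as examples after their values were seen. The members and lists were chosen with earlier results of these data known. The steps were tested on simulated data. No 2 arrays held identical values. Alternatives covered scaling, filters, variance estimates, array weights, tissue scores as covariates and leaving out arrays.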

Additional observations from a re-analysis of the deposited data

Results flagged for a closer look

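Among the 61 genes followed by array, 10 of 122 groups of 4 arrays had a value far from the other 3 by Dixon's criterion, which chance gives in about 1 of 20 groups. Ala array 36 stood apart for Drd1 (12.31, against 13.98 to 14.14 on the others), Hr (5.53, against 5.00 to 5.04) and the clock gene Arntl (10.49, against 11.11 to 11.15). Ala array 33 stood apart for Ppp1r1b (15.08, against 16.12 to 16.28) and Calb2 (6.77, against 5.68 to 5.81). Thr array 38 was above the others for Thra (14.95), Rasd2 (15.60) and Ebf1 (11.84). Thr array 40 was above the others for Serpina1a (9.29, against 6.19 to 6.46) and Fgg (8.13, against 4.81 to 5.36).

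Of 70 groups of list scores, 3 had such an array. The score of the genes that turn over the type 2 deiodinase was 10.99 on Thr array 37, against 11.42 to 11.50 on the other Thr arrays. The astrocyte score was 10.57 on Ala array 34, against 10.25 to 10.29. The circadian clock score was 10.91 on Ala array 36, against 10.57 to 10.63.

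The genotype difference of 8 genes differed between the striatum and the mean of the other regions in the fit to all arrays. The distance was -5.10 for Mup2, -5.17 for Mup22, -4.58 for Mup9, -4.98 for Mup19, -4.29 for Alb and -1.96 for Mup3. It was 1.06 for Slc14a2 and 1.34 for Phactr2.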

How the results depend on the processing

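Against 7 genes called, the count was 11 with all 40 arrays in the fit (Cd59a, Slc14a2 and Tspoap1 higher, and Alb, Fgg, Mup2, Mup3, Mup9, Mup19, Mup21 and Mup22 lower in Ala, 6 of them among the 7), 3 with the score of the choroid plexus as a covariate (Mup2, Mup22 and Pisd-ps3) and 0 with that of the liver. With the liver score Mup2 differed by -3.37, Mup9 by -3.27, Mup19 by -3.55 and Mup22 by -3.50, and Alb by -1.95. The choroid plexus and liver scores separate the genotypes, so these changes cannot be assigned to score or genotype. Leaving out each array in turn gave 5 to 8 genes. Mup2, Mup9, Mup19, Mup22 and Alb were called each time. Without array 34, 36 or 39 neither Cd59a nor Lbp was called. Without array 34 Kcnj13 (3.97) and Folr1 (3.56) were called, and without array 35 Slc13a4 (2.22). Leaving out arrays 33 and 36, or 37 and 40, together gave 5 genes each, and these 2 settings and the neocortex score were added after seeing the data. Quantile normalization, median centring, the filters, every annotated row and no trend gave 7 each, robust variances 6, array weights 8 and an adjusted p under 0.10 8. Quantile normalization shifted the median of all genes by -0.02 and centring by -0.03. The comparison with other regions called 8 genes, 5 to 9 with an array left out, 5 of them without array 40, and 11 with array weights. No paired analysis was possible because the arrays are numbered 33 to 40 and the genotypes share no number.

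Of 1452 gene values in 61 genes, those that changed sign belonged to differences near 0 or to settings with a tissue score or arrays left out. With the choroid plexus score they were Slco1c1 (-0.33), Klf9 (-0.10), Hr (-0.13), Atf4 (-0.64), Arntl (0.012), Ano3 (0.30), Stat5a (-0.062), Drd1 (0.60) and Trh (0.10). With the liver score they were Serpina1c (0.039), Serpina1a (0.42), Fgg (0.25), Rasd2 (-0.036) and Atf4 (-0.047). Alb, Fgg, Serpina1a and Serpina1c are members of the list whose mean is the liver score, which takes up part of their own difference by construction. Atf4 (-0.046) was the gene that changed sign with the neocortex score. Without arrays 37 and 40 they were Dio2 (-0.046), Thrb (-0.34), Klf9 (-0.30) and Rasd2 (-0.028), and without arrays 33 and 36 Hspa5 (-0.046), Atf4 (-0.30), Drd1 (0.043) and Ppp1r1b (0.051). With array weights they were Klf9 (-0.12), Hspa5 (-0.00222) and Atf4 (-0.11), and with median centring Hspa5 (-0.031) and Atf4 (-0.022). Leaving out each array moved Thra between -0.16 and 0.17, Thrb between -0.21 and 0.28, Klf9 between -0.22 and 0.19, Rasd2 between -0.047 and 0.38, Hspa5 between -0.14 and 0.12, Atf4 between -0.22 and 0.26, Drd1 between -0.59 and 0.019, and Ppp1r1b between -0.44 and 0.028. The cause of the other changes was not tested. Genes near the negative control medians, among them Slc14a2, Mup3 and most liver genes, have little signal over background.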

Other observations

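Genes of the circadian clock had 12 positive and 5 negative differences in 17 tested members, with a median of 0.11 and 0 called by limma. Nr1d1, a repressor of the clock loop, had 12.41, 13.13, 12.72 and 13.10 in Ala striatum and 11.89, 12.27, 12.51 and 12.43 in Thr striatum (0.57 ± 0.23, limma adjusted p = 1.00). Arntl, which Nr1d1 is known to repress, had 11.14, 11.15, 11.11 and 10.49 in Ala and 11.53, 11.25, 11.24 and 11.35 in Thr (-0.37 ± 0.22, limma adjusted p = 1.00). For Arntl every Ala array was below every Thr array, and for Nr1d1 the groups overlapped by 1 array. Arntl differed by 0.012 with the choroid plexus score in the fit. The labels give no hour of dissection.

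The wall of the lateral ventricle holds neural precursors, and their list had 7 positive differences and 1 negative in 8 tested genes, with a median of 0.20 and 0 called by limma. Dlx2, a transcription factor gene of these precursors and of interneuron lineages, had 7.20, 7.37, 6.77 and 6.67 in Ala and 6.05, 6.41, 6.63 and 6.27 in Thr, without overlap (0.67 ± 0.25, limma adjusted p = 1.00). The interferon response had 10 positive and 2 negative differences in 12 tested genes (median 0.19), led by Ifi27 at 0.82 ± 0.37, and Ala array 36 held the highest value of 11 of its 18 genes on the array. Ifi27 differed by 0.05 with the choroid plexus score in the fit, by 0.48 with the liver score in the fit and by 0.43 without arrays 33 and 36. The 17 endothelial and mural genes had 13 positive and 4 negative differences (median 0.21) with 0 called. The cholesterol synthesis list was split, with Idi1 at 0.51 ± 0.23, Mvd at -0.53 ± 0.24 and a median of -0.03 over 16 genes. Idi1 differed by 0.24 with the choroid plexus score in the fit.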
